A study of Mus musculus with 2 samples.

Results

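Checkpoint and costimulatory ligands are proteins on tumour and myeloid cells, or secreted by them, that bind receptors on T cells and raise or lower T cell activation. The 9 genes described here were a named list: Cd274 (PD-L1), Pdcd1lg2 (PD-L2), Cd80, Cd86, Pvr (CD155), Nectin2 (CD112), Cd276 (B7-H3), Vsir (VISTA) and Lgals9 (galectin-9). All 9 were present among the 32285 genes of both count matrices. They were measured by single-cell RNA sequencing with matched T cell receptor (TCR) sequencing in subcutaneous tumours of mice kept on a control diet or on a diet lacking serine and glycine, called -SG here. Each diet had 1 library, so no test between diets was possible and the mice behind each library were not numbered in the labels. The tumour line, mouse strain and feeding time were not given in the sources used here, and the labels' extraction text describes human heart tissue, against the mouse tumours named in all other fields.

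Cells were gated by transcripts or contigs. T cells were barcodes with a TCR beta (TRB) contig, 242 control and 243 -SG cells. Macrophages were cells with at least 0.1% of their UMIs (unique transcript molecules) in C1qa, C1qb and C1qc and none in Krt20, 694 and 632 cells. Tumour cells were cells with at least 1 Krt20 UMI and no Ptprc, the pan-leukocyte gene, 4121 and 4613 cells. Tumour cells with at least 2 UMIs of Car9, a carbonic anhydrase induced under low oxygen, numbered 334 and 868 and are a subset of the tumour gate. In no gate were 3215 and 2434 cells, and 104 barcodes were shared by both libraries. Median depth per cell was 2754 and 5845 UMIs in T cells, 9585 and 10472 in macrophages and 25087 and 23206 in tumour cells, control first.

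The gates were read against marker genes. Levels are given on the counts-per-million scale (CPM), the UMIs of a gene or list relative to those of the gate. T cells held 576 and 889 CPM of the T cell receptor subunit Cd3e. Macrophages, gated on C1q genes, held 1190 and 1200 of Cd68, a lysosomal protein of phagocytes, and 470 and 360 of Csf1r, the macrophage growth factor receptor. Of the epithelial markers that did not define the tumour gate, Krt18 was at 24.1 and 19.6. Krt8 (0.653 and 0.303), Krt19 (0 and 0.113), Epcam (0.0092 and 0) and Cdh1 (0.0644 and 0.0952) were at or near 0, while the 6 fibroblast markers summed to 492 and 726, so "tumour" below means Krt20-positive and Ptprc-negative cells. The T gate carried 609 and 256 CPM over the 10 macrophage markers, and 17 and 29 of its cells held a Krt20 UMI; their part in the T cell values was not tested beyond the values without those cells that are given below.

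PD-L1 and PD-L2 both bind PD-1 (Pdcd1), which dampens signalling through the T cell receptor. CD80 and CD86 bind CD28, which activates, and CTLA-4, which restrains. CD155 and nectin-2 bind the inhibitory receptor TIGIT and the activating receptor CD226, VISTA and B7-H3 restrain T cells, and galectin-9 binds TIM-3 (Havcr2). Interferon gamma, made by T and NK cells, is a known inducer of PD-L1 on tumour and myeloid cells, and hypoxia, NF-kB and the partner protein CMTM6 are also known to act on PD-L1.

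Cd274 and Pdcd1lg2 are neighbours on mouse chromosome 19 (GRCm38.p6), at 29362107 to 29388095 and at 29410919 to 29472927, with 22823 bases between them. The table of RefSeq promoter windows on that build held 7 of the 9 genes; Cd86 and Pvr were not in it. The 250 bases before the listed start site are shown for both PD-1 ligands, whose levels are compared below, and for Lgals9. Like Nectin2 and Cd80, Lgals9 was higher in tumour cells rich in interferon genes. The Cd274 window lies inside the annotated span of the gene, at chr19:29367188-29367437 on the plus strand; that of Pdcd1lg2 is chr19:29410669-29410918 on the plus strand and that of Lgals9 chr11:78984925-78985174 on the minus strand. Capitals mark matches, on either strand, to any of 4 motifs: the hypoxia response element core ACGTG, the interferon-gamma activated site TTCNNNGAA, the interferon-stimulated repeat (GAAA, any 2 bases, GAAA) and the kB motif (GGGA, any 4 bases, CC).
Cd274: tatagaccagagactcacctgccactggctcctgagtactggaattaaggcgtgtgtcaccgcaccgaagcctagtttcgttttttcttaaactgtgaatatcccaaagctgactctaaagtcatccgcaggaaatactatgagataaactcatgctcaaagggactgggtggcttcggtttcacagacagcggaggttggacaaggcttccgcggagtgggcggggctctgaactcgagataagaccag
Pdcd1lg2: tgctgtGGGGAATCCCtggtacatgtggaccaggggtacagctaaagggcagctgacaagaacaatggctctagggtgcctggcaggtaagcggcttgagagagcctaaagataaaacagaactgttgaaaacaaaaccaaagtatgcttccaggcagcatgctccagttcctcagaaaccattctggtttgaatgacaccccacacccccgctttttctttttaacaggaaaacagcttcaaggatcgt
Lgals9: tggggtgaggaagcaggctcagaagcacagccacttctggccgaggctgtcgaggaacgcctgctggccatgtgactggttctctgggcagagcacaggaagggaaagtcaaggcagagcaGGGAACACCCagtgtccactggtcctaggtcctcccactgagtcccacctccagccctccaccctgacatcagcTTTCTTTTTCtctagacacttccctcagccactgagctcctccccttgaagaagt
No match to the 4 motifs lay in the Cd274 window, which says only that these letters are not in these 250 bases. The Pdcd1lg2 window held 1 kB match, 244 bases before the start site, and the Lgals9 window held 1 kB match (129 bases before) and 1 interferon-stimulated repeat (55 bases before). Over 32851 windows of 27025 genes, 17.6% held the kB motif, 2.98% the interferon-stimulated repeat, 7.02% the interferon-gamma activated site and 16.6% the hypoxia core. The windows of Cd80 and Nectin2 each held 1 kB match as well but no match to either interferon motif, and those of Cd276 and Vsir held none of the 4 motifs. A link between these motifs and the levels was not tested.

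The total behind CPM leaves out TCR and immunoglobulin genes, and levels have exact Poisson 95% intervals. Intervals of levels, shares and ratios cover counting error only and not the difference between mice. Those of levels and of their ratios treat each UMI as independent, so they also leave out the clustering of UMIs in single cells. A ratio is the -SG over the control level, and 1.5-fold either way is the size used to describe a gene as higher or lower. Levels of different genes are not compared, because capture differs between genes.

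**Figure D1:**
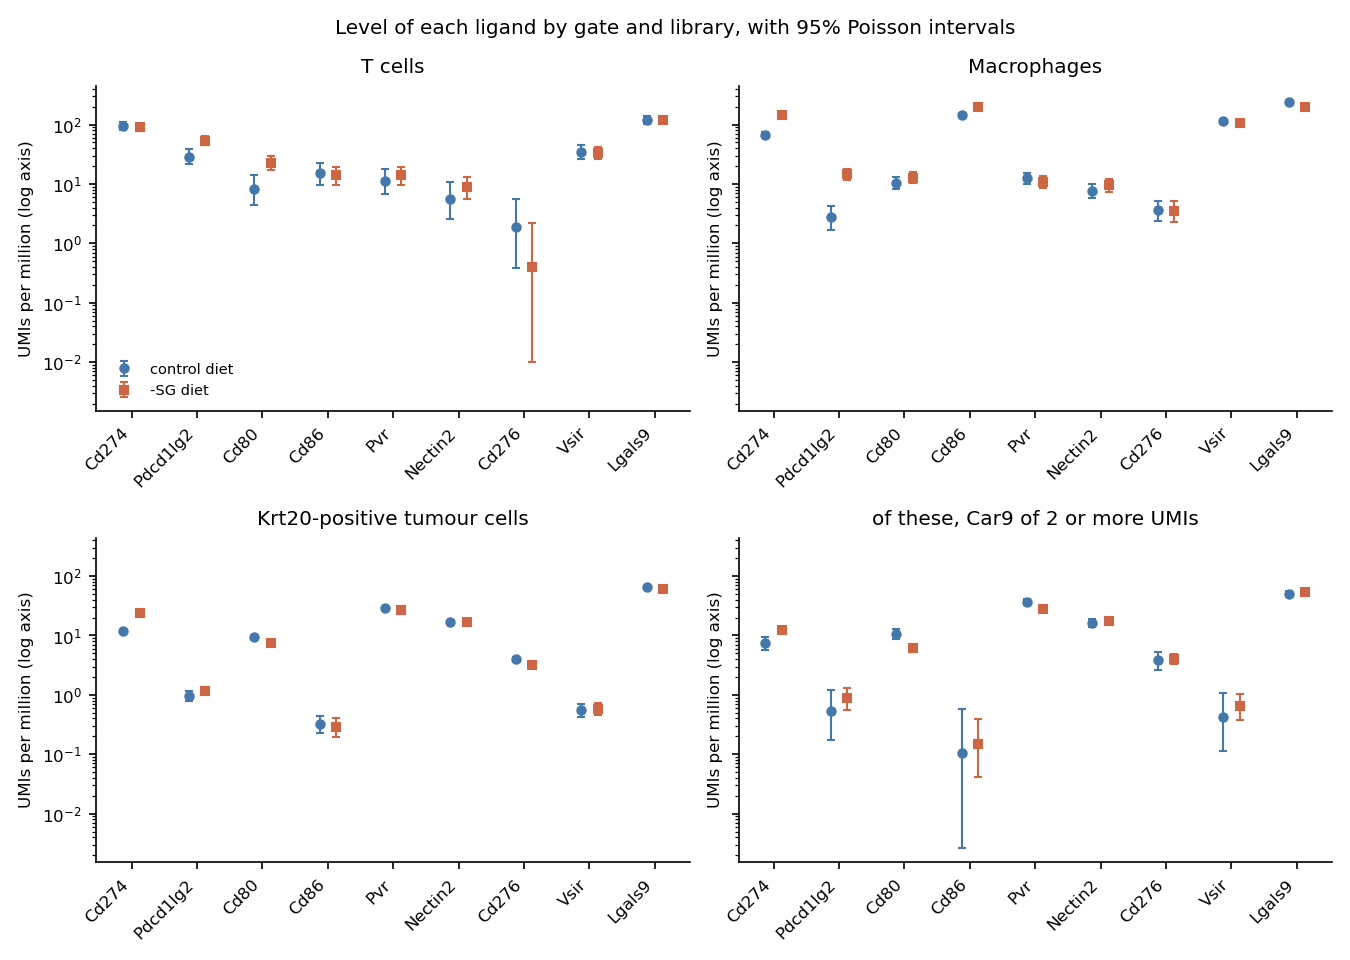
Level of each ligand (CPM, log axis) in 4 gates of the control library (circles) and the -SG library (squares), with exact Poisson 95% intervals. Cd86 and Vsir lay above 100 in macrophages and below 1 in tumour cells, whereas Pvr was at 28.7 and 27.1 in tumour cells and at 12.6 and 10.8 in macrophages.

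Among T cells, macrophages and tumour cells, the Cd274 level was highest in T cells (control) or macrophages (-SG) and lowest in tumour cells in both libraries. Of these 3 gates, Cd86 and Vsir were highest in macrophages, and Pvr and Nectin2 in tumour cells. Other cells, described further on, reached higher levels of some ligands. Of the members measured, 3 of 8 in T cells were past 1.5-fold between diets, all higher (of all genes measured there 7.63% were higher and 12.1% lower). In macrophages 2 of 9 were past it, both higher (4.87% of all genes higher, 8.69% lower), and in tumour cells 1 of 9, also higher (9.28% higher, 5.76% lower). In tumour cells with Car9, 3 of 8 were higher and 1 lower (6.18% higher, 6.46% lower). These counts include Nectin2 in T cells and Pdcd1lg2 and Vsir in Car9 cells, whose intervals, given below, include 1. Median ratios of the members were 1.1 in T cells, 1.23 in macrophages, 0.946 in tumour cells and 1.06 in those with Car9, against 0.957, 0.921, 0.963 and 0.95 over all genes.

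**Figure D2:**
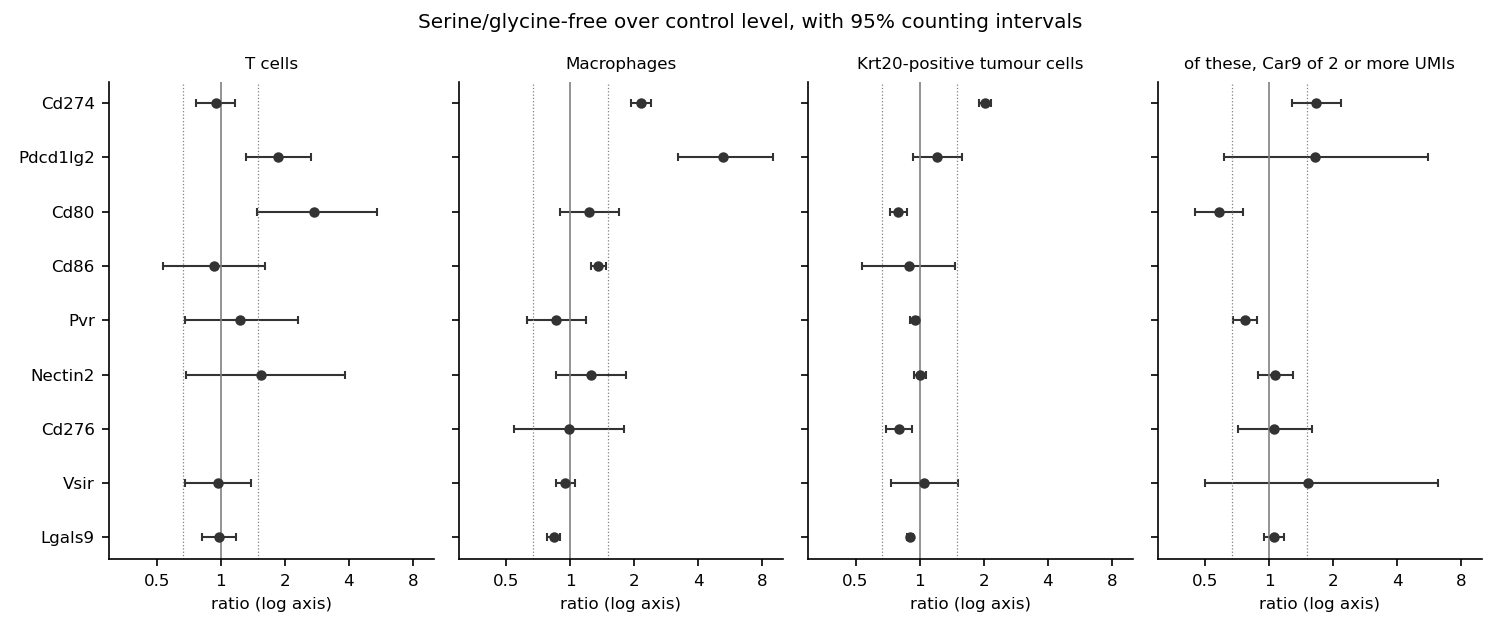
Ratio of the -SG to the control level of each ligand (log axis) in 4 gates, with exact 95% counting intervals; the solid line is 1 and dotted lines mark 1.5-fold either way. Cd274 stands at 2.15 in macrophages and 2.02 in tumour cells but at 0.947 in T cells, Pdcd1lg2 reaches 5.23 in macrophages, and Cd80 lies at 2.73 in T cells and 0.792 in tumour cells.

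Cd274 encodes PD-L1, the main PD-1 ligand of tumour cells. In macrophages its level was 67.7 CPM in the control library (61.8 to 74; 490 UMIs) and 146 in the -SG library (137 to 155; 1027 UMIs). The intervals did not overlap, and the ratio was 2.15 (1.93 to 2.4). In tumour cells it was 11.8 (11.2 to 12.5) and 23.9 (23 to 24.8), a ratio of 2.02 (1.89 to 2.16), again without overlap. T cells held 94.7 (80.2 to 111) and 89.7 (78.3 to 102), a ratio of 0.947 (0.766 to 1.17), so the libraries were not distinguishable there by counting error.

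After thinning, the share of cells with a Cd274 UMI gave the same order of the libraries in each gate, but not the same order of the gates. In the -SG library T cells, and not macrophages, had the highest share. With every cell thinned to 1000 UMIs, 7.03% of control macrophages (5.21 to 9.23) and 12.7% of -SG macrophages (10.2 to 15.6) held one, against 30.4% and 52.5% at full depth. T cells were at 15.3% (10.9 to 20.6) and 14.8% (10.5 to 19.9), against 32.2% and 43.6% unthinned, where the libraries differed in depth. Tumour cells were at 1.38% and 2.43% at 1000 UMIs, and thinned to 5000 UMIs at 4.82% (4.18 to 5.53) and 9.32% (8.49 to 10.2). Within the tumour gate Cd274 was concentrated: the 1% of cells richest in it held 32.9% of its UMIs in the control and 26.5% in the -SG library, where Pvr had 7.41% and 8.42%. The highest count in a single tumour cell was 28 and 47 UMIs.

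Cells outside the 4 gates were also read for Cd274, in gates set after the data had been seen. Monocytes (at least 2 Ly6c2 UMIs, outside the other gates; 216 and 112 cells) held 200 (176 to 227) and 255 CPM (222 to 292), a ratio of 1.27 (1.05 to 1.54), while dendritic cell markers summed to 50.3 and 176 CPM and mature dendritic cell markers to 88 and 60.1 in them; their part was not tested. NK cells (Ncr1-positive; 15 and 125 cells) held 58.3 and 68.3. Neutrophils (40 and 51 cells) were gated on at least 1% of UMIs in S100a8 and S100a9. They had the highest Cd274 levels of the gates in this paragraph, 925 (624 to 1320) and 1230 (968 to 1530). Their median depth was only 782.5 and 1031 UMIs per cell, with 30 and 77 Cd274 UMIs. Cells without Krt20 and without Ptprc, which have no marker-based name here, held 21 and 40.1 CPM, a ratio of 1.91 (1.74 to 2.1), close to that of the Krt20-positive cells.

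Pdcd1lg2 encodes PD-L2, the other PD-1 ligand, typical of dendritic cells and activated macrophages. In macrophages it stood at 2.76 CPM (1.69 to 4.27; 20 UMIs) on the control diet and at 14.5 (11.8 to 17.6; 102 UMIs) on the -SG diet, a ratio of 5.23 (3.22 to 8.93). The share of macrophages with a UMI was 2.45% and 8.23% at full depth, and 0.299% (0.0362 to 1.08) and 1.3% (0.564 to 2.55) at 1000 UMIs, where the 2 and 8 positive cells leave the intervals overlapping. T cells held 29 (21.3 to 38.7) and 53.6 CPM (44.9 to 63.5), a ratio of 1.85 (1.31 to 2.64). Tumour cells held only 0.966 (0.79 to 1.17) and 1.17 (0.98 to 1.38), for which the ratio was 1.21 (0.93 to 1.58). NK cells had a Pdcd1lg2 level of 112 (74.1 to 164; 27 UMIs) and 71.4 (55.5 to 90.3; 69 UMIs), above that of macrophages and monocytes (14.2 and 27.7).

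Cd80 and Cd86, the ligands of CD28 and CTLA-4, had different patterns over the gates. Cd80 (chromosome 16, 38457430 to 38495958) was at 9.33 CPM (8.77 to 9.92) in control and 7.39 (6.9 to 7.9) in -SG tumour cells, a ratio of 0.792 (0.722 to 0.868) with no overlap. In tumour cells with Car9 it was at 10.6 (8.59 to 12.8) and 6.13 (5.22 to 7.15), a ratio of 0.58 (0.45 to 0.752). T cells went the other way, at 8.21 (4.37 to 14; 13 UMIs) and 22.4 (16.9 to 29.1; 56 UMIs), a ratio of 2.73 (1.48 to 5.44) that was 1.59 within CD8 T cells. Macrophages were at 10.4 and 12.8 (1.23, 0.896 to 1.7), and monocytes at 38.6 and 38.5. Neutrophils held 339 (169 to 607) and 239 (134 to 394) from 11 and 15 UMIs.

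Cd86 (chromosome 16, 36568956 to 36666158) marked macrophages, with 145 CPM (136 to 154) and 196 (186 to 207), a ratio of 1.35 (1.25 to 1.47), and monocytes, with 251 and 236. At 1000 UMIs per cell 12.6% (10.1 to 15.3) of control and 20.2% (17.1 to 23.6) of -SG macrophages were positive. In tumour cells the share was 0.0486% and 0.108% and the level 0.322 (0.224 to 0.448) and 0.286 (0.197 to 0.401). C1qa, a macrophage gene, was at 10.8 and 9.84 in the same cells, and the part of free RNA in the Cd86 value was not tested. T cells held 15.2 and 14 CPM of Cd86 beside 140 and 52.4 of C1qa.

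Pvr and Nectin2, the ligands of TIGIT and CD226, were higher in tumour cells than in T cells and macrophages and barely differed between diets in tumour cells. They were not particular to the tumour gate. Cells without Krt20 and without Ptprc held 28.6 and 26.6 CPM of Pvr and 21.4 and 21.1 of Nectin2. Monocytes held 15.9 (9.59 to 24.9) and 28.9 (18.5 to 43) of Pvr. Pvr (chromosome 7, 19903578 to 19921143) was at 28.7 CPM (27.7 to 29.7) and 27.1 (26.2 to 28.1) in tumour cells, a ratio of 0.946 (0.9 to 0.994). In macrophages it was at 12.6 (10.1 to 15.4) and 10.8 (8.49 to 13.5) and in T cells at 11.4 (6.73 to 18) and 14 (9.76 to 19.5), all below the tumour cells. The share of tumour cells with a Pvr UMI at 5000 UMIs was 13.6% (12.5 to 14.7) and 12.6% (11.6 to 13.6). In tumour cells with Car9 the level was 36.9 (33.1 to 40.9) and 28.4 (26.4 to 30.5), a ratio of 0.771 (0.678 to 0.878).

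Nectin2, 154004 bases away from Pvr (19716644 to 19749573), had 16.8 CPM in tumour cells of each library, with a ratio of 1 (0.937 to 1.07). Macrophages held 7.6 (5.72 to 9.89) and 9.5 (7.36 to 12.1), for which the ratio was 1.25 (0.862 to 1.82). In T cells it was at 5.68 and 8.81 from 9 and 22 UMIs, a ratio of 1.55 (0.686 to 3.82). That value rested on T barcodes that also carried Krt20 or C1q UMIs: without them 5 UMIs were left and the ratio was 0.188 (0.00382 to 1.9). Pvr in T cells likewise went from 1.23 (0.68 to 2.31) to 0.578 (0.227 to 1.43) without those barcodes.

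The remaining ligands, Cd276, Vsir and Lgals9, were within 1.5-fold between diets in T cells, macrophages and tumour cells wherever they were measured. Cd276 (chromosome 9, 58524300 to 58555033), encoding B7-H3, was at 4.01 CPM (3.64 to 4.41) and 3.21 (2.89 to 3.56) in tumour cells, a ratio of 0.801 (0.695 to 0.922), and at 3.59 and 3.54 in macrophages. T cells had 3 and 1 Cd276 UMIs in all. Vsir (chromosome 10, 60346851 to 60430294), encoding VISTA, was at 114 (106 to 122) and 108 (100 to 116) in macrophages and 34.7 and 33.6 in T cells, but at 0.552 and 0.58 in tumour cells. Lgals9 (chromosome 11, 78962979 to 78984924) was found in every gate. It was at 240 (229 to 252) and 201 (191 to 212) in macrophages, a ratio of 0.837 (0.78 to 0.898), and at 121 and 118 in T cells. Tumour cells held 65.8 (64.3 to 67.3) and 59.5 (58.1 to 60.9), a ratio of 0.905 (0.875 to 0.935), and the share positive at 5000 UMIs was 27.9% and 23.5%.

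Tumour cells with Car9 were compared with tumour cells without it inside each library, which gives the comparison once per diet. Cd274 was lower with Car9 in both, while no member was 1.5-fold higher in either. In the control library 3 of 9 members were past 1.5-fold lower (4.21% of all genes were higher and 15.2% lower), and in the -SG library 2 of 9 (2.73% higher, 17.9% lower). The members had median ratios of 0.738 and 0.857, against 0.889 and 0.86 over all genes. Cd274 was at 7.39 CPM (5.76 to 9.34) with Car9 and 12.7 without in the control library, which gave 0.58 (0.449 to 0.739). In the -SG library it was at 12.3 (11 to 13.7) and 27.9, a ratio of 0.44 (0.39 to 0.494). Lgals9 was within 1.5-fold in both, with ratios of 0.738 (0.671 to 0.81) and 0.857 (0.807 to 0.909). The latter was at the -SG median over all genes, 0.86. Cd86, the other member past 1.5-fold in both, rested on 1 and 4 UMIs in Car9 cells. Pdcd1lg2 in the control library (0.545, 0.173 to 1.32) rested on 5 and was at 1.02 where Car9 cells were those with at least 4 Car9 UMIs. Between diets, the Cd274 ratio in Car9 cells was 1.66 (1.28 to 2.18); Pdcd1lg2 and Vsir, the other ligands past 1.5-fold higher there, had 1.65 (0.613 to 5.55; 5 and 23 UMIs) and 1.52 (0.497 to 6.22; 4 and 17 UMIs).

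Pvr went the other way in the control library, at 36.9 CPM with and 27.8 without Car9, a ratio of 1.33 (1.18 to 1.48), and was at 1.07 (0.984 to 1.16) in the -SG library. Nectin2 did not differ beyond counting error, at 0.973 (0.819 to 1.15) and 1.05 (0.943 to 1.17). Cd276 was at 0.971 (0.669 to 1.37) and 1.36 (1.07 to 1.72), and Cd80 at 1.13 (0.907 to 1.39) and 0.784 (0.656 to 0.934). Hypoxia genes marked the Car9 cells in both libraries, with 9 of 11 measured genes higher in each, 1 lower in the control and 0 lower in the -SG library, and median ratios of 2.39 and 2.13; Ankrd37 had ratios of 5.14 and 3.97 and Pgk1, a glycolytic enzyme, 3.17 and 2.97. Of the interferon-gamma list, 6 of 22 and 6 of 23 genes were lower and 0 higher, beside 15.2% and 17.9% of all genes lower. The median ratios of that list, 0.87 and 0.875, were near the 0.889 and 0.86 over all genes. Among its lower genes were the chemokine gene Cxcl10 (0.484 and 0.395) and the guanylate-binding protein gene Gbp2 (0.428 and 0.55).

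**Figure D3:**
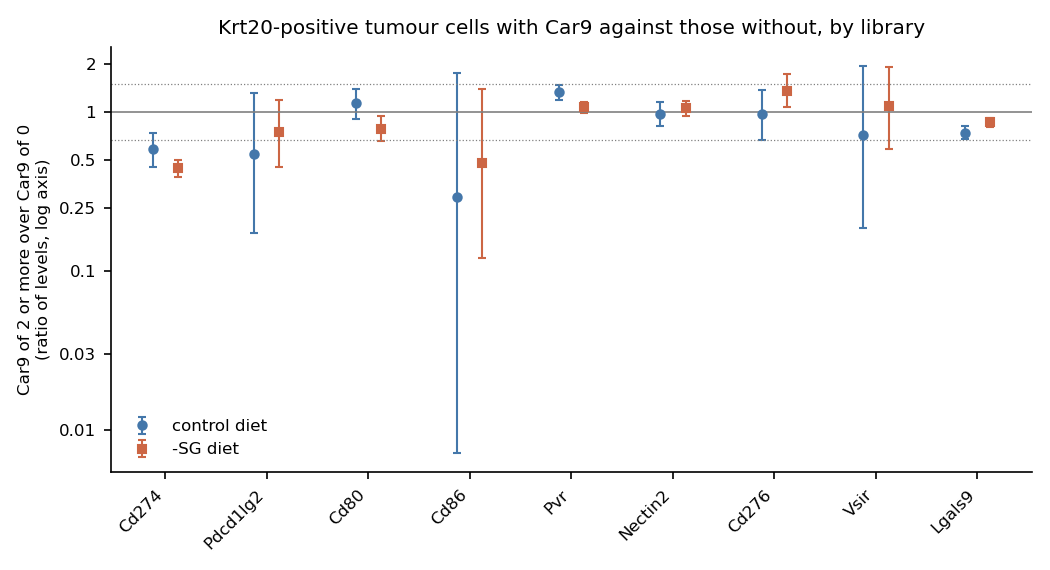
Level in Krt20-positive tumour cells with at least 2 Car9 UMIs over the level in those with none (log axis), within the control library (circles) and the -SG library (squares), with exact 95% counting intervals. Cd274 (0.58 and 0.44) and Lgals9 (0.738 and 0.857) lie below 1 in both libraries, and Pvr lies above 1 in the control library (1.33). The median ratio over all genes was 0.889 and 0.86.

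Cd274 was then read at a like level of interferon genes. Tumour cells of both libraries were pooled and cut into 4 bins of equal size by the share of their UMIs in the 24 genes of the interferon-gamma list, which holds none of the 9 ligands. The bounds were 0.455%, 0.612% and 0.828%; the bins are ranges of a continuous score, and 438 control and 846 -SG cells lay within 10% of the top bound. The top bin held 13.5% of control and 35.3% of -SG tumour cells, and 14.2% and 36.5% with each cell thinned to 5000 UMIs.

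Cd274 increased along the bins in both libraries. In the control library it was at 5.11, 7.78, 16.2 and 43.2 CPM from the lowest to the highest bin, and in the -SG library at 5.48, 12.1, 16.9 and 52.3. Within a bin the diet ratio was 1.07 (0.841 to 1.36), 1.56 (1.32 to 1.84), 1.05 (0.914 to 1.2) and 1.21 (1.09 to 1.34), each below the 2.02 of the whole gate. Lgals9 increased as well, from 55 to 86.1 and from 44.4 to 74.9, and its diet ratio was below 1 in all bins (0.726 to 0.87). Nectin2 was higher in the top than in the lowest bin too, at 14.2 and 22.5 in the control and 12.6 and 21.8 in the -SG library, and Cd80 was at 8.28 and 11.8, and 6.02 and 8.44. Pvr had no such order, between 26.3 and 30.6 in the control and 25.7 and 28.4 in the -SG library. Cd80 kept a diet ratio below 1 in every bin: 0.727, 0.682, 0.795 and 0.716, each with an interval below 1.

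Macrophages were cut in the same way, at 0.853%, 1.1% and 1.41%. The top bin held 18.3% of control and 32.4% of -SG macrophages (19.9% and 32.9% thinned to 1000 UMIs). Here Cd274 had diet ratios of 3.44 (2.46 to 4.83), 1.64 (1.27 to 2.11), 3.21 (2.49 to 4.19) and 1.03 (0.876 to 1.2), so the libraries differed in the 3 lower bins and not beyond counting error in the top one, at 209 and 215 CPM. Pdcd1lg2 had another layout, with ratios of 0.859 (0.0818 to 5.25), 1.53 (0.39 to 6.36) and 4.09 (1.18 to 21.8) in the 3 lower bins. It was at 2.08 and 1.79 CPM in the lowest bin and at 6.05 (2.43 to 12.5; 7 UMIs) and 36.2 (28.6 to 45.3; 77 UMIs) in the top one, a ratio of 5.99 (2.77 to 15.4).

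**Figure D4:**
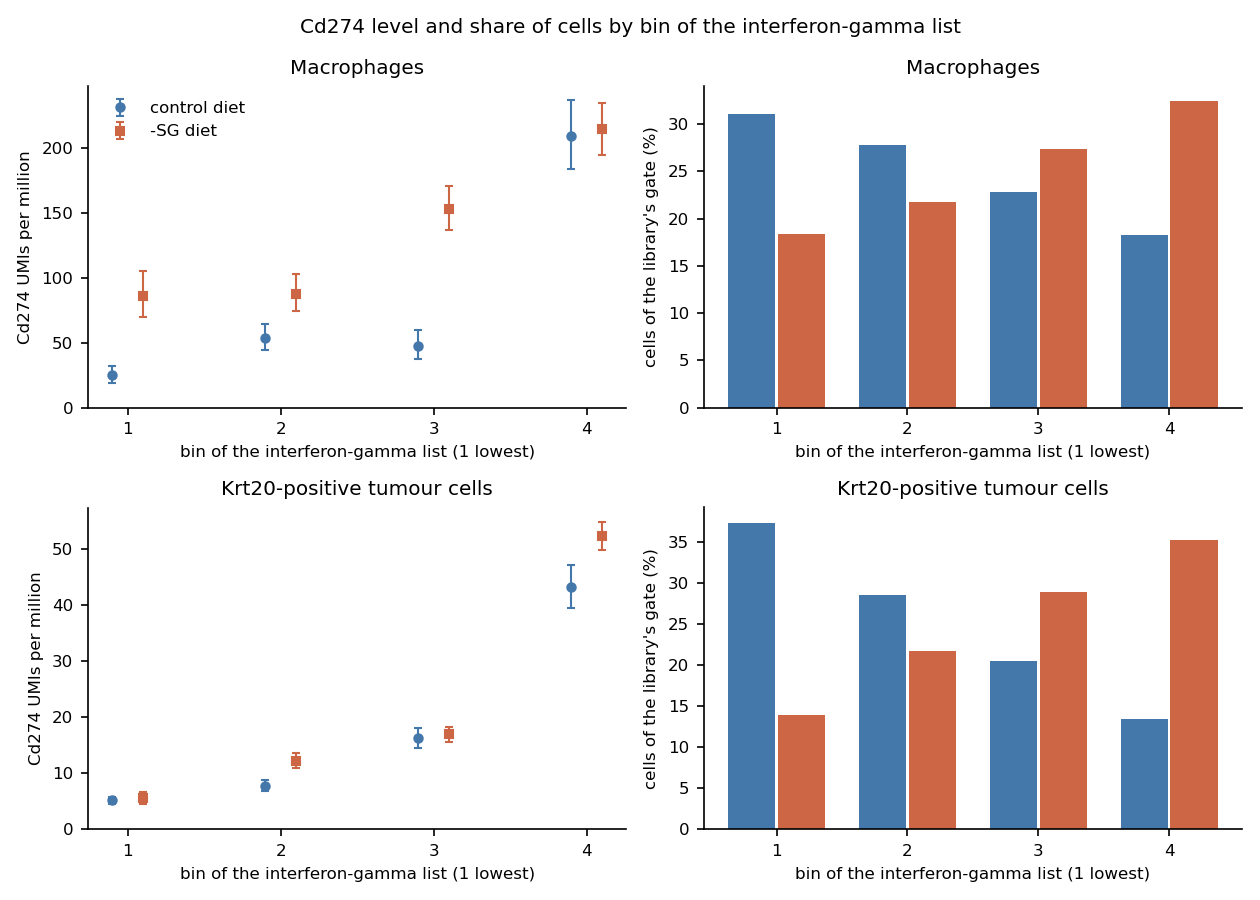
Cd274 level (CPM, left, with exact Poisson 95% intervals) and share of the library's cells of that gate (%, right) in bins of the interferon-gamma list, for macrophages (top) and Krt20-positive tumour cells (bottom) of the control library (circles, left bars) and the -SG library (squares, right bars). In tumour cells the level ratio within a bin is 1.05 to 1.56, and the libraries fill the bins differently, with 13.5% and 35.3% of cells in the top one; in macrophages Cd274 differs in the 3 lower bins.

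Combining both cuts, tumour cells with and without Car9 were compared inside each bin. In the control library the Cd274 ratio was 0.917 (0.562 to 1.43), 0.656 (0.361 to 1.11), 0.997 (0.651 to 1.47) and 0.24 (0.0774 to 0.563), the last from 5 UMIs in 26 cells. In the -SG library it was 0.806 (0.49 to 1.29), 1.25 (0.973 to 1.6), 0.528 (0.41 to 0.672) and 0.351 (0.289 to 0.423). Cd274 was thus lower with Car9 in the top bin of both libraries and, in the -SG library, in the third bin too. Pvr in the control library was higher with Car9 in each bin, at 1.22 (1.03 to 1.44), 1.31 (1.04 to 1.63), 1.38 (1.05 to 1.78) and 2.26 (1.47 to 3.34).

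Cells with and without a Cd274 UMI at full depth were compared by the summed level of each other ligand. Co-detection, the share of cells with a UMI of the ligand, was taken after thinning. In tumour cells, 654 of 4121 control and 1090 of 4613 -SG cells held a Cd274 UMI. Of the 8 other ligands, 1 was 1.5-fold higher in Cd274-positive cells of the control library (6.72% of all genes higher, 3.47% lower) and 2 in the -SG library (9.3% higher, 1.58% lower). Cd86 was higher in both, at 4.45 (2.16 to 9.15) and 7.68 (3.44 to 18.8), and C1qa moved with it, at 18.7 against 9.11 CPM and 20.1 against 6.25 in positive and negative cells; its part in the Cd86 value was not tested. Pdcd1lg2 was at 0.975 (0.552 to 1.63) and 1.59 (1.09 to 2.28). Lgals9 was slightly higher, at 1.21 (1.14 to 1.28) and 1.13 (1.08 to 1.2), and Pvr and Nectin2 lay between 0.95 and 1.08.

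Thinned to 5000 UMIs, 34.7% of the 196 Cd274-positive control tumour cells held Lgals9 against 27.6% of negative cells, a ratio of 1.26 (0.969 to 1.61), and 27.9% of 423 against 23.1% in the -SG library, 1.21 (0.99 to 1.46). Cd276 was co-detected 3.04 times as often as in negative cells in the control library (1.39 to 5.95; 10 cells) and 0.572 times in the -SG library (0.152 to 1.53; 4 cells). Without thinning the values were 1.2 and 1.11, so direction and size for Cd276 depended on the thinning. Genes of the interferon-gamma list marked Cd274-positive tumour cells, with 10 of 22 and 9 of 23 higher and 0 lower in either library. Gbp2 was at 267 against 79.8 CPM (3.35) and 389 against 138 (2.82). Of the hypoxia list 0 and 1 of 11 were higher.

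In macrophages 211 of 694 and 332 of 632 cells were Cd274-positive. In the control library 1 of 8 other ligands was 1.5-fold higher in them (7.24% of all genes higher, 4.8% lower) and in the -SG library 3 of 8 (7.74% higher, 6.43% lower). Pdcd1lg2 was the one found in both, at 3.95 against 2.12 CPM in the control library (1.86, 0.694 to 4.98; 10 UMIs each) and 21.3 against 5.3 in the -SG library (4.02, 2.34 to 7.34). Cd80 in the -SG library was at 16.1 against 8.29 (1.94, 1.21 to 3.22) and Nectin2 at 11.1 against 7.29 (1.53, 0.899 to 2.67). Among cells of 2000 to 20000 UMIs only, 0 of 7 and 2 of 7 ligands were higher. Thinned to 1000 UMIs, the co-detection ratios in -SG macrophages were 2.29 (0.226 to 12.8) for Pdcd1lg2, 0.982 (0.108 to 4.27) for Cd80 and 3.44 (0.0582 to 66) for Nectin2. These rested on few cells, and after thinning no ligand had an interval excluding 1 in macrophages of either library. At full depth the -SG ratios of these ligands were 3.37 (1.7 to 7.27), 2.15 (1.31 to 3.62) and 1.64 (0.936 to 2.93). Cd274-positive cells were deeper there, with median UMIs of 11189.5 against 9285 in negative cells. Unlike in tumour cells, hypoxia genes were higher with Cd274 in macrophages, 7 and 8 of 12, among them Adm (2.57 and 2.72) and Vegfa (1.96 and 2.04), the genes of a vasodilator peptide and an angiogenic factor. The interferon-gamma list had 7 of 23 higher in each.

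In T cells 78 and 106 cells were Cd274-positive. None of the 4 ligands measured in the control library was past 1.5-fold (10.2% of all genes higher, 14.2% lower). In the -SG library 1 of 7 was higher and 1 lower (10.9% higher, 6.62% lower): Cd86 at 3.35 (1.55 to 7.82), beside C1qa at 117 against 4.19 CPM, and Pvr at 0.335 (0.124 to 0.785). Their link to macrophage and tumour RNA in T barcodes was not tested. Thinned to 1000 UMIs, 0 of 35 Cd274-positive -SG T cells held Cd86 and 0 held Pvr.

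T cells also carry the receptors of these ligands. Of the receptor list, 7 of 11 measured genes were 1.5-fold higher in -SG T cells and 0 lower, beside 7.63% of all genes higher and 12.1% lower. Pdcd1 was at 84 and 475 CPM (5.66, 4.73 to 6.83), Lag3 at 39.1 and 168 (4.28), Tigit at 66.9 and 213 (3.18) and Havcr2 at 16.4 and 40.8 (2.49). T cells with a Pdcd1 UMI made up 22.3% (17.2 to 28.1) of control and 68.7% (62.5 to 74.5) of -SG T cells, at unequal depth, with median UMIs of 3664 and 8665 in positive and 2659 and 2710 in negative cells. The T gates also differed in the share of cells called CD8, at 28.5% and 66.7%, and CD4, at 22.7% and 12.3%. Neither call was made for 118 of 242 and 51 of 243 T cells. The part of the unequal depth in these shares was not tested. Cd274 was at 80.3 and 67.3 CPM in CD8 and at 95.9 and 169 in CD4 T cells (1.76, 1.1 to 2.8).

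Split by Pdcd1, a division made after the data had been seen, the T cell ligands separated. In T cells without a Pdcd1 UMI, Cd274 was at 101 CPM (83.5 to 120) in the control and 218 (176 to 266) in the -SG library, a ratio of 2.16 (1.64 to 2.86). In T cells with one it was at 75.9 (50.8 to 109) and 62.5 (52.2 to 74.3), a ratio of 0.824 (0.548 to 1.28). Of the ligands measured, 4 of 5 were past 1.5-fold higher in the Pdcd1-negative cells (12.2% of all genes higher, 17.6% lower) and 1 of 8 in the Pdcd1-positive cells (12.9% higher, 16% lower). The 4 in Pdcd1-negative cells were Cd274, Pdcd1lg2 (21.6 and 43.6 CPM), Vsir (37.4 and 59.7) and Pvr (10.8 and 18.4; 13 and 8 UMIs). Ligands with too few UMIs to be measured went both ways. Cd86 (13.3 and 6.88) and Cd276 (2.5 and 0) were lower, Cd80 (4.99 and 6.88) and Nectin2 (5.82 and 6.88) higher. Without the cell richest in Cd274 in each library the Cd274 ratio in Pdcd1-negative cells was 1.99 (1.48 to 2.68), and without barcodes marked by Krt20 or C1q it was 2.21 (1.64 to 2.96).

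Pdcd1lg2 and Cd80 were at higher levels beside Pdcd1 in part. Pdcd1lg2 had 52.3 CPM in Pdcd1-positive and 21.6 in Pdcd1-negative control T cells (2.42, 1.28 to 4.5) and at 55.8 and 43.6 in the -SG library (1.28, 0.783 to 2.2). Cd80 was at 18.3 and 4.99 in the control (3.67, 1.06 to 13.2; 7 and 6 UMIs, under the 20 asked of a measured gene) and 25.7 and 6.88 in the -SG library (3.73, 1.21 to 18.7; 53 and 3 UMIs). Within Pdcd1-positive cells the diet ratio of Cd80 was 1.4 (0.636 to 3.66) and that of Pdcd1lg2 1.07 (0.659 to 1.81), where counting error does not separate the libraries. Over Pdcd1-negative cells, 2 of 5 measured ligands were higher and 0 lower in Pdcd1-positive control T cells (13.2% of all genes higher, 13% lower). In the -SG library 2 of 8 were higher, Cd80 and Cd86, and 2 lower, Cd274 at 0.287 (0.218 to 0.378) and Vsir at 0.471 (0.292 to 0.78), beside 18% of all genes higher and 16.1% lower.

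**Figure D5:**
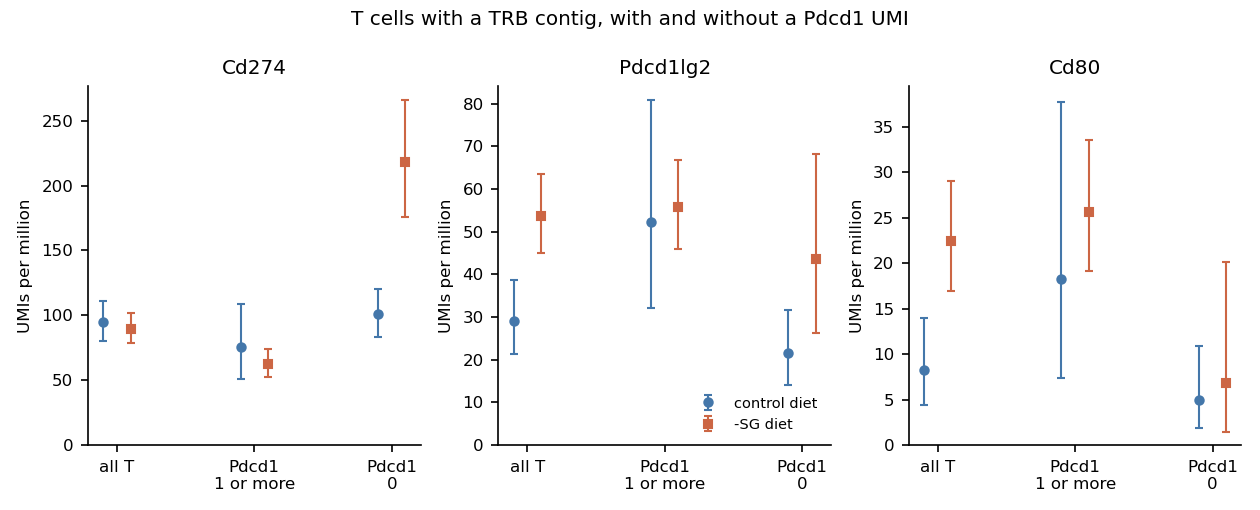
Level (CPM) of Cd274, Pdcd1lg2 and Cd80 in T cells with a TRB contig, all and split by a Pdcd1 UMI, in the control (circles) and the -SG library (squares), with exact Poisson 95% intervals. Cd274 in Pdcd1-negative cells is at 101 and 218, without overlap, while in Pdcd1-positive cells it is at 75.9 and 62.5.

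Other genes of the pathway were read from lists between the diets. Of all genes, 9.28% were higher and 5.76% lower in tumour cells, and 6.18% and 6.46% in those with Car9. The shares were 4.87% and 8.69% in macrophages and 7.63% and 12.1% in T cells. Of the genes known to act on PD-L1 protein or transcription, 0 of 15 in T cells and 0 of 16 in macrophages, tumour cells and Car9 tumour cells were past 1.5-fold; in tumour cells Cmtm6, which protects PD-L1 from degradation, was at 6.34 and 4.64 CPM (0.732) and Stt3a, an oligosaccharyltransferase subunit, at 87.2 and 63.4 (0.727). Of the interferon-gamma list, 7 of 23 genes were higher and 0 lower in tumour cells (median ratio 1.4, against 0.963 over all genes), with Cxcl10 at 82.6 and 235 CPM (2.85) and Gbp2 at 113 and 203 (1.8). In macrophages 2 of 23 were higher and 0 lower (1.12 against 0.921), Ciita at 3.24 and Cxcl9, a chemokine that draws T cells, at 1.99. In T cells 2 of 21 were higher and 2 lower (1.02 against 0.957).

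For the following counts too, 9.28% of all genes were higher and 5.76% lower in tumour cells, 4.87% and 8.69% in macrophages and 7.63% and 12.1% in T cells. NF-kB genes were higher for 3 of 7 in tumour cells, 2 of 7 in macrophages and 0 of 7 in T cells, with 0 lower in each; Nfkbia, the inhibitor gene that NF-kB itself induces, was at 255 and 631 CPM (2.47) in tumour cells and 392 and 649 (1.65) in macrophages. Hypoxia genes were higher for 7 of 11 in tumour cells and 2 of 12 in macrophages, with Ndrg1 at 2.03 and 1.82. Among the other ligand genes in macrophages, 2 of 12 were higher and 2 lower: Cd40 was at 61.6 and 95.3 CPM (1.55) and Vsig4, a complement receptor that restrains T cells, at 10.4 and 2.41 (0.233, 0.129 to 0.398). In T cells Cd200 was at 16.4 and 40 CPM (2.44).

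Each ligand was also set beside the genes whose pattern over 12 points was most like it (6 cell gates in each of 2 libraries, log2 of CPM plus 5, 8145 genes). The points share libraries and some share RNA sources, so the Pearson correlations are descriptions. Cd274 was closely matched by Psme1 (0.982) and Birc3 (0.981), and Pdcd1lg2 was most like Tg (0.969), Il7r (0.968) and Cyfip2 (0.967), and Cd80 like B3gnt5 (0.939). Cd86 was most like Cd83 (0.998) and Vsir like Inpp5d (0.999), Lgals9 like Ppp1r9b (0.993), Pvr like Eps8 (0.927), Nectin2 like Tbc1d19 (0.959) and Cd276 like Ift22 (0.933). Among the ligands themselves Vsir and Lgals9 (0.98) and Cd86 and Lgals9 (0.98) ran closest, and Nectin2 and Vsir were opposed (-0.88).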

How the data were processed

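Both libraries were made with 10x Genomics immune profiling, per the labels. Values in the deposited matrices are UMI counts, not normalized. Per the file headers, Cell Ranger 7.1.0 made them; Cell Ranger 2.2.2 and the build mm10 stand in the submitters' processing notes. Aligner settings are not given in the sources used here. The matrices held 8466 control barcodes with 161332426 UMIs and 7999 -SG barcodes with 157234945 UMIs.

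The cell filter asked for 300 genes or more and no more than 20% of UMIs from mitochondria, which left 8262 and 7913 cells. No doublet caller was run; 4 and 2 barcodes were in both the T and the macrophage gate and 6 and 7 in both the T and the tumour gate, and alternatives leave out marked barcodes and the deepest 5% of cells. Summed counts of a gate and library were scaled to its total, from which 660 TCR and immunoglobulin genes were left out. Levels have exact Poisson, shares exact Clopper-Pearson and ratios exact conditional binomial 95% intervals. Shares were taken after seeded thinning to 1000 UMIs (5000 in tumour cells). A gene was measured in a comparison with a summed count of at least 20. Steps were tested on simulated data. Python 3.11.15, numpy 2.4.6, scipy 1.17.1, pandas 2.3.3 and matplotlib 3.10.9 were used.

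All 9 ligands were named in each gate, with up to 4 genes per list by size of ratio and from the 3 genes most like each ligand; 1 result is not reported here. The ligands and the gene lists were chosen with earlier results of these data known. Monocyte, NK, neutrophil and Pdcd1 gates, the interferon bins and the PD-L2-positive tumour cells were set after the data were seen.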

Additional observations from a re-analysis of the deposited data

Results flagged for a closer look

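Cd80, a ligand of CD28 and CTLA-4, was higher in -SG than in control T cells by a ratio of 2.73 (1.48 to 5.44), while its ratio was 0.792 (0.722 to 0.868) in Krt20-positive tumour cells and 0.58 (0.45 to 0.752) in those with Car9. The 2 cell types thus lay on opposite sides of 1. The difference between the cell types was not tested, because each diet had 1 library, and the T cell value rests on 13 and 56 UMIs; within CD8 T cells it was 1.59, in Pdcd1-positive T cells 1.4 (0.636 to 3.66) and in Pdcd1-negative T cells 1.38 (0.223 to 6.45; 9 UMIs in all).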

How the results depend on the processing

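No paired analysis was possible because each diet had 1 library and the labels give no replicate numbers, so no library could be left out either. Of 338 diet ratios recomputed under alternatives, 314 stayed within the counting interval of the main value and 21 left it. Another 3 crossed 1 from a main value past 1.5-fold or with an interval excluding 1. For the Car9 ratios these counts were 72, 63, 7 and 2. Crossings from main values nearer 1 were not counted as a change of direction, for example Vsir in macrophages (0.947 to 1.03). The changes of direction that were counted all rested on few UMIs. Nectin2 in T cells went from 1.55 to 0.188 without marked barcodes, 0.285 without these and the largest clonotype, and 0 in CD4 cells. The control Car9 ratio of Pdcd1lg2 went from 0.545 to 1.02 with Car9 at 4 UMIs or more and to 1.18 in cells of 10000 to 40000 UMIs. Cd276 beside Cd274 in -SG tumour cells went from 0.572 to 1.11 without thinning; the causes were not tested. The Cd274 diet ratio ranged from 2.08 to 2.34 in macrophages, 1.91 to 2.39 in tumour cells (2.39 as a mean of per-cell CPM, 2.19 in cells without Car9), 1.46 to 2.13 in Car9 cells and 0.838 to 1.76 in T cells (1.76 in CD4 cells). The Cd274 Car9 ratio in the -SG library was 0.266 as a mean of per-cell CPM. Pdcd1lg2 in macrophages ranged from 5.13 to 5.91 and Cd80 from 1.59 to 3.54 in T cells and 0.738 to 0.835 in tumour cells. Genes past 1.5-fold numbered 1994 in T cells, 1578 in macrophages, 2427 in tumour cells and 1561 in Car9 cells; they numbered 510, 603, 1129 and 661 at a summed count of at least 100, 3632, 3118, 4303 and 3184 at a count of at least 5, and 700, 499, 878 and 549 past a fold of 2. Scaling by the median ratio of all genes (0.921 in macrophages, log2 -0.12) moved the share of higher among these genes from 35.9% to 52.9% in macrophages and from 48.9% to 60% in Car9 cells; Cd86 in macrophages became 1.47, Cd274 2.34 and Vsir 1.03, from 0.947. Low counts limit Cd276 and Nectin2 in T cells and Cd86 and Vsir in Car9 cells. The depth bands for Cd274-positive cells, the cells without Krt20, the tumour cells without Car9, the CD4 and CD8 cells and 1 combined clonotype setting were added after the data were seen.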

Other observations

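PD-L2 in Krt20-positive tumour cells came from few cells, looked at after the data had been seen. In the control library 40 cells (0.971%) held all 105 Pdcd1lg2 UMIs and in the -SG library 70 cells (1.52%) held 135, with 19 and 15 cells at 3 UMIs or more. These cells were deep, with medians of 40594.5 and 39464.5 UMIs. Genes with at least 20 UMIs in these cells were ranked by their ratio over the other tumour cells, in each library. That filter favours genes high in these cells. Of the 10 highest in each library, 5 were shared. Of the 10 leading in the control library, 9 were past 1.5-fold higher in the -SG library, beside 4.3% of the 6884 genes under that filter. Of the 10 leading in the -SG library, 10 were past it in the control, beside 4.08% of 8238 genes. The overlap is a description and was not tested. Il33, an alarmin cytokine, was at 72 against 7.46 CPM (9.65, 7.87 to 11.8) in the control and 103 against 10.3 (10, 8.74 to 11.4) in the -SG library. Akr1c18, a steroid-metabolising enzyme, had ratios of 7.09 and 17.8, Plet1 of 11.9 and 8.17, and Klrb1a of 24.5 and 19.1. Hmox1 was at 5.93 in the control and 0.689 in the -SG library.

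The interferon-gamma list summed to 0.756 (0.738 to 0.775) and 0.853 (0.84 to 0.866) of its level in the other tumour cells. Gbp2, one of its genes, was at 0.297 in the control but 0.907 in the -SG library. Outside the list, Ly6a was at 0.21 and 0.442 and Ifi27l2a at 0.15 and 0.382, both picked after their values were seen, and 78 of 105 control and 48 of 135 -SG Pdcd1lg2 UMIs lay in the lowest interferon bin. Krt18 was higher, at 2.36 and 3.23, and Lgals9 lower, at 0.644 (0.5 to 0.818) and 0.633 (0.516 to 0.769). In cells with 3 or more Pdcd1lg2 UMIs Cd80 was at 2.05 (1.14 to 3.4) and 2.7 (1.39 to 4.74). C1qa was at 0.461 in the control but 4.19 in the -SG library, where the cells with 3 or more UMIs held 0 C1qa UMIs.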
